A study of Mus musculus with 6 samples.

Results

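Platelet-derived growth factors (PDGFs), vascular endothelial growth factors (VEGFs) and angiopoietins are secreted signals that act through receptor tyrosine kinases. PDGFs drive the growth and migration of mesenchymal and mural cells through PDGFRα and PDGFRβ, VEGFs act on blood and lymphatic endothelium, and angiopoietins tune the endothelial receptor Tie2, with angiopoietin 1 as its agonist and angiopoietin 2 as a context-dependent antagonist. In bone marrow, stromal cells carry both PDGF receptors and are a source of VEGF-A and angiopoietin 1. The genes described here are the 10 rows of the count table whose symbol is Pdgfa, Pdgfb, Pdgfc, Pdgfd, Pdgfra, Pdgfrb, Vegfa, Vegfc, Angpt1 or Angpt2, out of 20071 Ensembl IDs. All 10 were found and all 10 passed the filter on low counts, which 13733 genes passed.

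RNA-seq of poly(A) RNA was performed on bone marrow mesenchymal stem cells (MSCs) cultured from femurs of 6-week-old mice of C57BL/6J background, 3 libraries from Pcif1fl/fl mice (labelled WT) and 3 from Prrx1-Cre;Pcif1fl/fl littermates (labelled CKO). The labels WT and CKO are used for these genotypes from here on. In both genotypes exons 5 to 7 of Pcif1 lie between loxP sites, and the Prrx1-Cre transgene, active in limb mesenchyme, is present in the second genotype alone, so the controls carried no Cre. Pcif1 encodes the enzyme that writes m6Am on an adenosine next to the mRNA cap. All cultures had 7 days of osteogenic medium with dexamethasone (100 nM), ascorbic acid (50 µg/mL) and β-glycerophosphate (5 mM). The design text speaks of biological duplicates where the sample labels give 3 libraries per genotype, and the labels were followed. Which animals or cultures each library came from is not stated, so the p-values measure the spread between these libraries, which may be partly technical.

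Totals ran from 20258209 to 28227696 counts per library. WT replicate 3 stood apart, with 3.63% mitochondrial counts against 1.40% to 1.57% in the other 5 libraries and a chi-square per gene of 106 and 90.1 against the other WT libraries, where the other pairs of the same genotype gave 2.87 to 10.6. The genotypes also differed in Xist, at 232 to 443 CPM (counts scaled to a common library size with TMM factors) in WT and 0.722 to 1.79 CPM in CKO libraries, and in the Y-linked Ddx3y, at 48.4 to 62.2 and 99.1 to 104 CPM, so the sex of the donor mice and the genotype cannot be told apart. Each WT library thus carried both signals, as a mix of male and female cells would, and each CKO library carried Ddx3y with little Xist. Whether animals were pooled is not stated. Pcif1 itself was at 39.3 to 42.8 CPM in WT and 37.8 to 39.7 CPM in CKO libraries. Its gene-level count does not separate the deleted exons from the rest and is no check of the deletion. Markers of mesenchyme were present, among them Prrx1 at 211 to 283 CPM. Leukocyte markers were abundant as well, with Lyz2 at 22767 to 25242 CPM in WT and 21981 to 26233 CPM in CKO libraries. In bulk RNA of such cultures, fewer cells of a type and less RNA per cell cannot be told apart.

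Because PCIF1 acts on the first transcribed base when it is an adenosine, the annotated starts of the genes were read from RefSeq (GRCm38.p6). The table held 8 starts for 6 of the genes, Pdgfa, Pdgfc, Pdgfd, Pdgfra, Vegfa and Vegfc. The 30 bases around 4 of these starts are shown 5′ to 3′, with the first transcribed base in capitals, for both of these genes that fell in CKO MSCs (Pdgfra and Vegfc), for Vegfa, and for Pdgfc, whose level was closest to equal in the genotypes. They lie at chr5:75152236-75152265 (plus strand), chr8:54077517-54077546 (plus), chr17:46032363-46032392 (minus) and chr3:81036401-81036430 (plus).
Pdgfra: gacttcatttcctgaCagctatttacttta
Vegfc: gcttcacctcgcgggCcgccaccgagggca
Vegfa: ctgttaccggtgagaAgcgcagaggcttgg
Pdgfc: ttatttggggttaggGgcgcccaggggaaa

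The upstream start of Vegfa was the 1 of the 8 with A as first base, against 34.4% of the 32851 starts in the table. Pdgfra and Vegfc began with C at these positions. Start annotation is not exact to the base. The nearest GENCODE M21 start lay 41 bases from the RefSeq start for Pdgfra, 74 for Vegfc, 8 for Vegfa and 0 for Pdgfc, and the start used in these cells was not measured.

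Of the 10 genes, 3 were lower in CKO MSCs at an adjusted p under 0.05, namely Angpt2, Vegfc and Pdgfra, and 0 were higher (edgeR, quasi-likelihood test, p-values adjusted by the Benjamini-Hochberg method over all genes tested). Over all genes tested, 4.51% were lower and 2.88% higher by this rule. At an unadjusted p under 0.05, 6 of the genes were lower and 2 higher, against 11.8% and 9.56% of all genes. DESeq2 called 4 lower and 0 higher, against 5.26% and 3.76% of the 15789 genes to which it gave an adjusted p, and limma-voom 3 and 0, against 4.20% and 2.85%. Requiring a fold change of at least 2 as well, 0 of the 10 passed in either direction with edgeR, DESeq2 or limma-voom, also at an unadjusted p with edgeR, against 2.50% of all genes lower and 1.03% higher. The median log2 fold change of the 10 genes was -0.29, and that of all genes tested was 0.0017. The genotypes did not overlap for 7 of the 10 genes, with 6 lower in all CKO libraries and 1 higher, where 15.7% of all genes tested were so separated as lower and 15.0% as higher. The count of 3 depended on single libraries, as did the share of all genes called in either direction, 7.40% with all 6 libraries. It was 7 without WT replicate 3, when 21.5% of all genes passed and Pdgfrb, Vegfa and Angpt1 were also called lower and Pdgfd higher. It was also 3 without WT replicate 1 (5.59% of all genes), but with Angpt1 (adjusted p = 0.0408) in place of Vegfc (0.0847). It was 1, Angpt2, without WT replicate 2 (4.57%) or CKO replicate 1 (3.38%), 2 (3.73%) or 3 (3.41%).

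**Figure D1:**
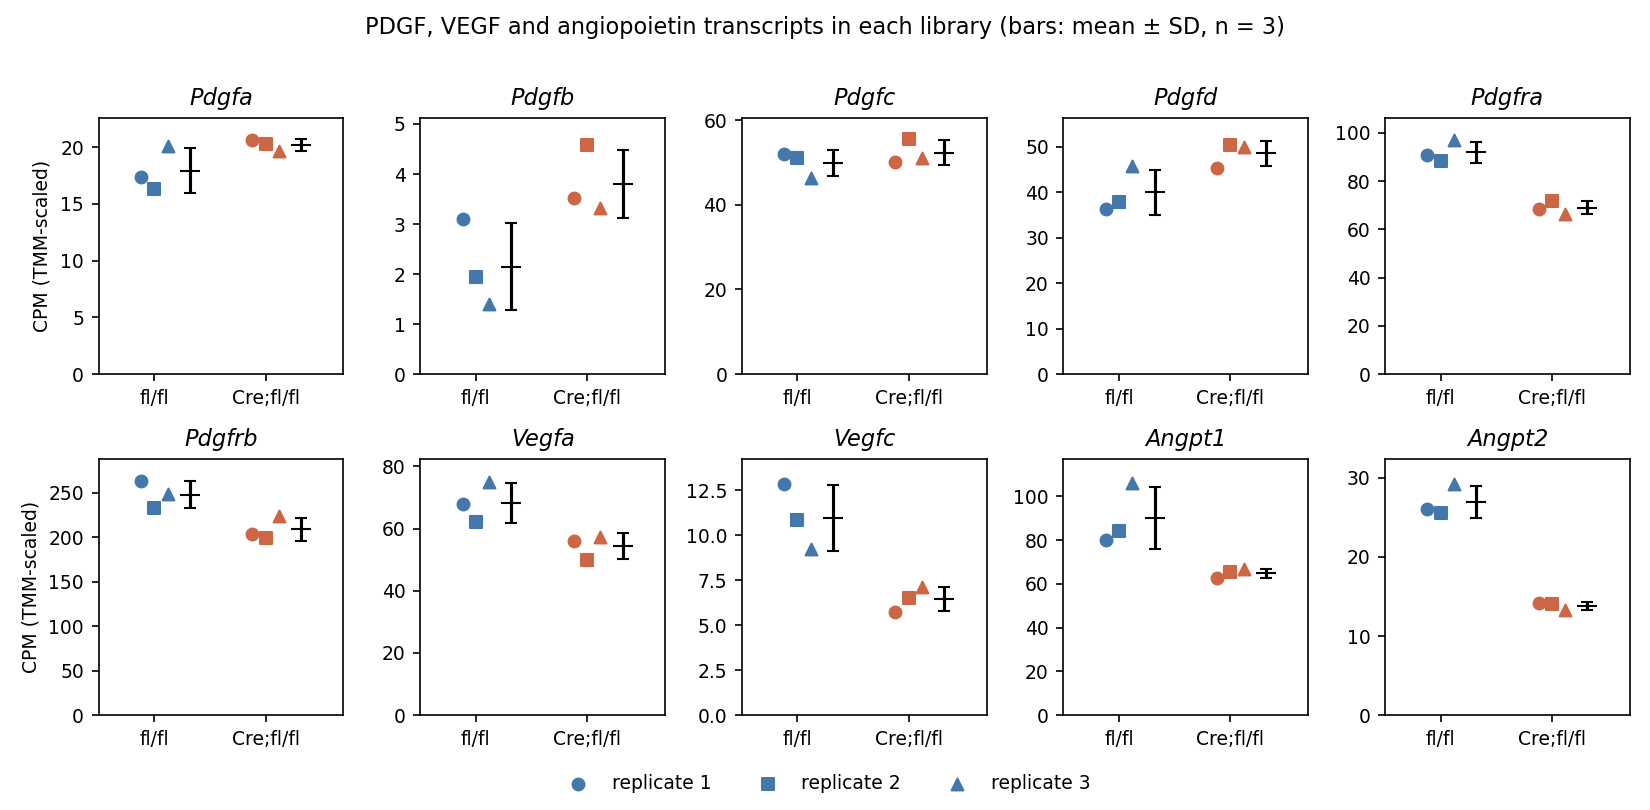
CPM (TMM-scaled, linear axis from 0) of the 10 genes in each library, with WT in blue, CKO in orange, marker shape for the replicate number and bars for mean ± SD (n = 3). The groups are apart for Pdgfra, Pdgfrb, Vegfa, Vegfc, Angpt1 and Angpt2, all lower in CKO, and for Pdgfb, which lies higher.

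Angpt2 had the log2 fold change farthest from 0 of the 10 genes with all 6 libraries, and without WT replicate 1 that of Pdgfb was farther (1.18 against -0.98). Angpt2 (ENSMUSG00000031465, chr8:18690263-18741562, minus strand, GRCm38) was at 26.0, 25.5 and 29.2 CPM in the WT libraries (replicates 1 to 3 in turn) and at 14.1, 14.1 and 13.2 CPM in the CKO libraries. The groups did not overlap, and the lowest control library was above every CKO library by more than the spread within either genotype. Angpt2 fell by 0.96 on the log2 scale, or by 48.6% (SE 0.11, 95% interval -1.22 to -0.71, adjusted p = 0.00149). It passed the threshold under each of the 13 alternatives, with log2 fold changes from -0.998 to -0.896 and adjusted p from 6.3e-10 to 0.0163.

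Angpt1, the Tie2 agonist, was more abundant than Angpt2. Angpt1 (chr15:42424723-42676977, minus strand) was at 79.9, 84.3 and 106 CPM in the WT libraries (replicates 1 to 3 in turn) and at 62.6, 65.5 and 66.6 CPM in the CKO libraries. The groups did not overlap, and WT replicate 3 was the highest library. The log2 fold change of Angpt1 was -0.48 (SE 0.12, 95% interval -0.75 to -0.20, adjusted p = 0.0521), just outside the threshold. It passed under 5 of the 13 alternatives, DESeq2 among them (adjusted p = 0.0177), and ranged from -0.55 to -0.34 over all of them, with adjusted p from 0.0023 to 0.218. Without WT replicate 3 the log2 fold change of Angpt1 was -0.34, with an adjusted p of 0.0023. The antisense gene Gm17473 covers 14.2% of its exonic bases, and the use of strand in counting is not given.

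As both angiopoietins were counted in the same libraries, their ratio does not depend on scaling. The ratio of Angpt1 to Angpt2 counts, which is not adjusted for transcript length and so serves to compare libraries, was 3.07, 3.31 and 3.64 in the WT libraries and 4.43, 4.65 and 5.03 in the CKO libraries. Every CKO library had the higher ratio, with means of 4.70 ± 0.305 and 3.34 ± 0.286 (SD, n = 3). This difference of 0.50 on the log2 scale is a description of 2 genes of the set and was not tested. It lay between 0.44 and 0.56 when any one library was left out.

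**Figure D2:**
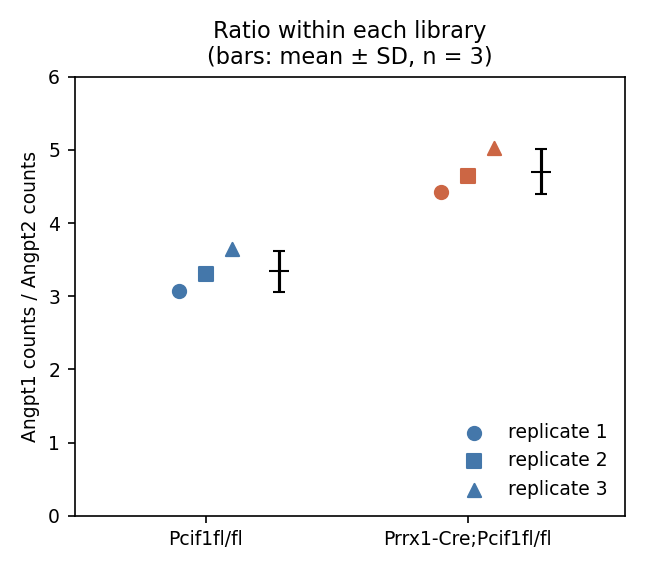
Angpt1 counts divided by Angpt2 counts within each library (linear axis from 0), with marker shape for the replicate number and bars for mean ± SD (n = 3). The 3 CKO libraries lie between 4.43 and 5.03, above the WT libraries between 3.07 and 3.64.

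Among the VEGF genes, Vegfc fell and Vegfa was not past the threshold. Vegfc (ENSMUSG00000031520, chr8:54077606-54187096, plus strand) encodes the main growth factor of lymphatic endothelium, which acts through VEGFR3. It was at 12.8, 10.8 and 9.21 CPM in the WT libraries (replicates 1 to 3 in turn) and at 5.76, 6.52 and 7.12 CPM in the CKO libraries. The groups did not overlap. The control spread was wide, and the lowest control, replicate 3, lay above the highest CKO library by less than that spread. Vegfc fell by 0.76 on the log2 scale, or by 41.0% (SE 0.17, 95% interval -1.15 to -0.37, adjusted p = 0.0314). The call was lost without WT replicate 1 (log2 fold change -0.63, adjusted p = 0.0847) or 2 (-0.77, adjusted p = 0.0937) and without CKO replicate 1 (-0.68, adjusted p = 0.159), 2 (-0.76, adjusted p = 0.121) or 3 (-0.83, adjusted p = 0.0885), and the adjusted p lay between 0.00047 and 0.159 under the 13 alternatives. The Vegfc call was also lost with the replicate number as a block (-0.75, adjusted p = 0.0754).

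Vegfa (chr17:46016993-46032369, minus strand) encodes the main growth factor of blood vessels and a known target of the hypoxia-inducible factors. It was at 67.7, 62.1 and 75.0 CPM in the WT libraries (replicates 1 to 3 in turn) and at 55.9, 49.7 and 57.4 CPM in the CKO libraries. The groups did not overlap, although the gap between the closest libraries was smaller than the spread within either genotype. The log2 fold change of Vegfa was -0.33 (SE 0.11, 95% interval -0.58 to -0.083, adjusted p = 0.116). It passed without WT replicate 3 (-0.25, adjusted p = 0.0339) and under no other alternative.

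Of the PDGF receptors, Pdgfra fell and Pdgfrb was not past the threshold. Pdgfra (ENSMUSG00000029231, chr5:75152292-75198215, plus strand) encodes PDGFRα, a receptor widely used to mark mesenchymal progenitors. It was at 90.7, 88.5 and 96.9 CPM in the WT libraries (replicates 1 to 3 in turn) and at 68.6, 71.9 and 66.5 CPM in the CKO libraries. The groups lay well apart relative to the spread within each. Pdgfra fell by 0.42 on the log2 scale, or by 25.0% (SE 0.087, 95% interval -0.62 to -0.22, adjusted p = 0.0244). Its log2 fold change stayed between -0.44 and -0.37 under all alternatives, but the call was lost without WT replicate 2 (-0.44, adjusted p = 0.0625) and without CKO replicate 1 (-0.41, adjusted p = 0.145), 2 (-0.44, adjusted p = 0.0808) or 3 (-0.39, adjusted p = 0.155), and the adjusted p lay between 0.00089 and 0.155. The Pdgfra call was also lost with the replicate number as a block (-0.42, adjusted p = 0.0798). Genes on the opposite strand and a microRNA overlap 6.50% of the exonic bases of Pdgfra.

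Pdgfrb, which encodes the receptor of pericytes and other mural cells, was the most abundant of the 10 genes. It was at 263, 233 and 249 CPM in the WT libraries (replicates 1 to 3 in turn) and at 203, 199 and 224 CPM in the CKO libraries. The groups were apart by a narrow margin. The log2 fold change of Pdgfrb was -0.25 (SE 0.092, 95% interval -0.46 to -0.037, adjusted p = 0.164), and it passed without WT replicate 3 alone (-0.24, adjusted p = 0.0268). The ratio of Pdgfra to Pdgfrb counts was 0.344 to 0.390 in WT and 0.297 to 0.360 in CKO libraries, and these ranges overlapped.

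None of the 4 PDGF ligand genes passed the threshold, and all 4 had positive log2 fold changes. Pdgfb (chr15:79995874-80014977, minus strand), which encodes the ligand that recruits pericytes and is made by endothelial cells, megakaryocytes and macrophages, was the least abundant, with 39 to 71 counts in WT and 69 to 92 counts in CKO libraries. Pdgfb was at 3.10, 1.95 and 1.40 CPM in the WT libraries (replicates 1 to 3 in turn) and at 3.51, 4.58 and 3.32 CPM in the CKO libraries. The groups did not overlap, but the control libraries differed among themselves by more than the gap between the groups. Its log2 fold change of 0.83 had a wide interval, from 0.14 to 1.53 (SE 0.30, adjusted p = 0.153), and moved from 0.60 without WT replicate 3 to 1.18 without WT replicate 1.

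Pdgfd (chr9:6168584-6378850, plus strand), whose product binds PDGFRβ, was at 36.3, 37.9 and 45.7 CPM in the WT libraries (replicates 1 to 3 in turn) and at 45.3, 50.4 and 49.9 CPM in the CKO libraries. WT replicate 3 lay within the range of the other genotype. The log2 fold change of Pdgfd was 0.28 (SE 0.12, 95% interval 0.014 to 0.55, adjusted p = 0.212), and without WT replicate 3 it was 0.39, with an adjusted p of 0.00228. Pdgfa (chr5:138976014-138997370, minus strand) and Pdgfc (chr3:81036416-81214040, plus strand), whose products bind PDGFRα, had log2 fold changes of 0.17 (95% interval -0.11 to 0.44, adjusted p = 0.473) and 0.069 (95% interval -0.15 to 0.29, adjusted p = 0.725). For Pdgfa the libraries ranged from 16.3 to 20.1 CPM in WT and from 19.6 to 20.6 CPM in CKO, and for Pdgfc from 46.4 to 52.1 and from 50.1 to 55.6 CPM. The antisense gene 6330403L08Rik covers 26.1% of the exonic bases of Pdgfa. The ratio of Pdgfa to Pdgfb counts was 5.61 to 14.4 in WT and 4.42 to 5.91 in CKO libraries, and these ranges overlapped.

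**Figure D3:**
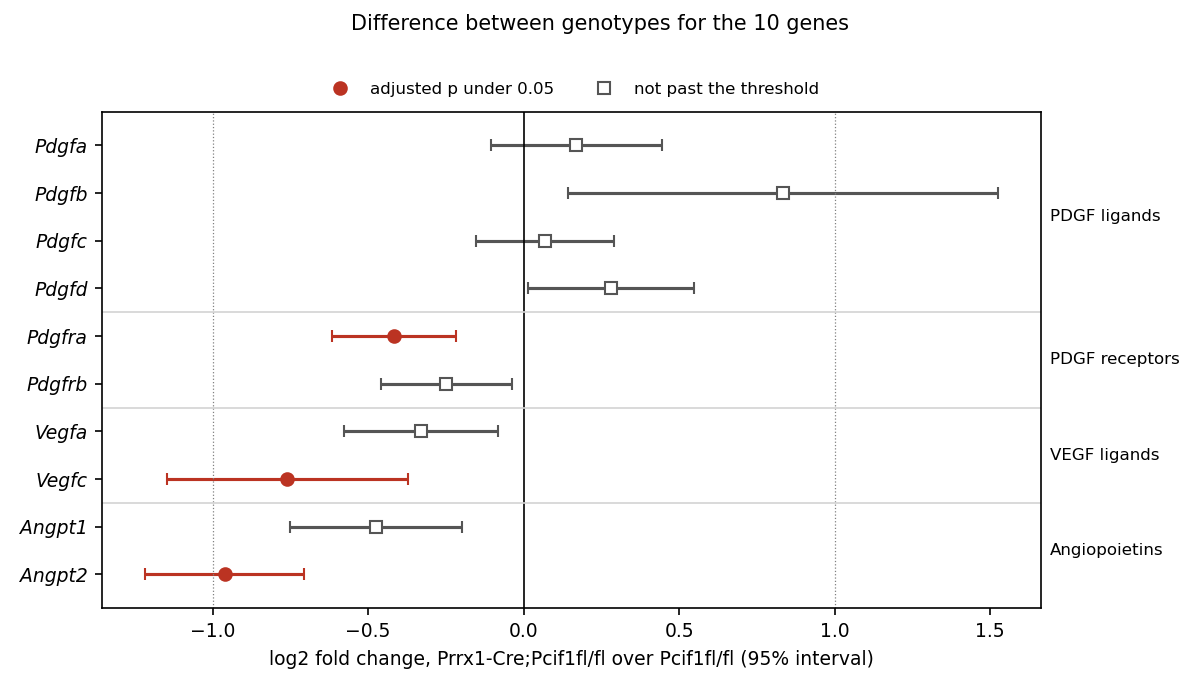
Log2 fold change (CKO over WT) of the 10 genes with its 95% interval from the edgeR fit, filled red circles for an adjusted p under 0.05 and dotted lines at a 2-fold change. The PDGF ligands lie at 0.069 to 0.83, and the PDGF receptors, VEGF ligands and angiopoietins at -0.96 to -0.25.

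Per length, as CPM per kilobase of annotated exon, Pdgfrb stood highest in WT MSCs at 45.3 ± 2.79 (SD, n = 3). Angpt1 (17.3 ± 2.71), Vegfa (15.9 ± 1.5), Pdgfd (12.7 ± 1.6), Pdgfc (9.79 ± 0.596), Pdgfra (9.18 ± 0.434), Angpt2 (7.29 ± 0.539), Pdgfa (5.75 ± 0.633), Vegfc (4.48 ± 0.742) and Pdgfb (0.517 ± 0.209) followed in this order. The libraries of Angpt1 and Vegfa overlapped, as did those of Pdgfc and Pdgfra and those of Pdgfa and Vegfc, so the order within these pairs was not resolved. In CKO MSCs, Pdgfd (15.4 ± 0.891) stood above Vegfa (12.7 ± 0.949) and Angpt1 (12.5 ± 0.393), and Pdgfa (6.47 ± 0.160) above Angpt2 (3.74 ± 0.138). The length is that of all annotated exons together, 10.02 kb for Pdgfra, which can exceed that of the transcripts in use.

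**Figure D4:**
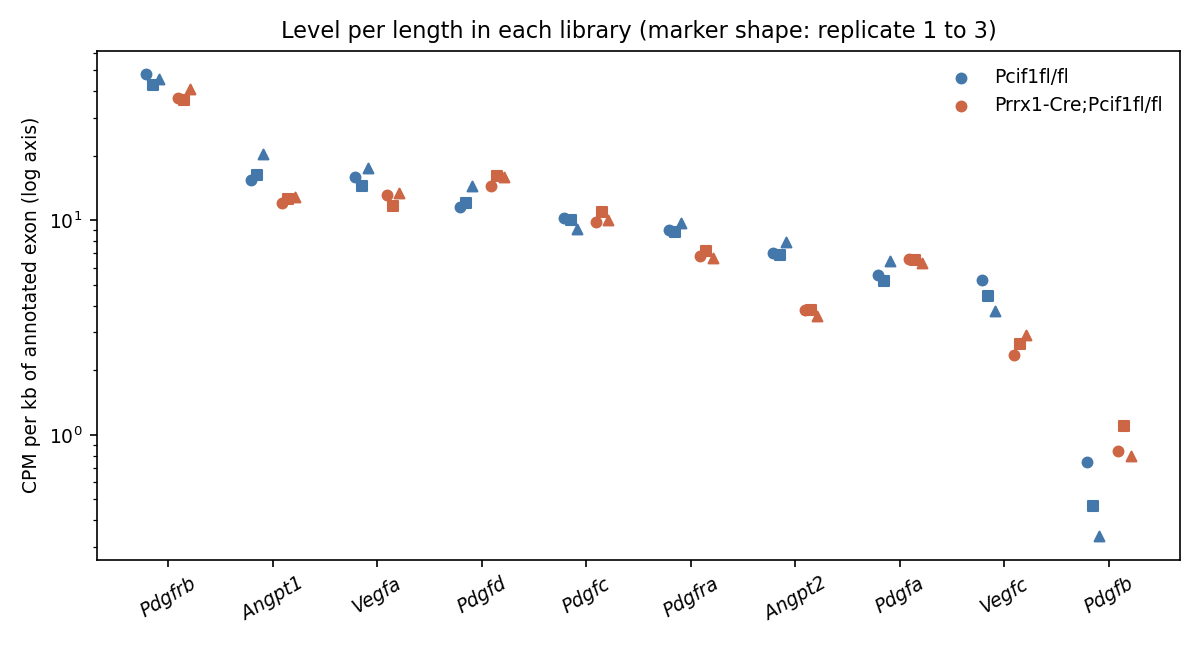
Level per length (CPM per kilobase of annotated exon, log axis) of the 10 genes in each library, ordered by the WT mean, with WT in blue and CKO in orange. Pdgfrb is highest and Pdgfb lowest in both genotypes, and Angpt2 drops from 7.29 to 3.74 on average.

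Further genes of the same pathways were taken from 5 hand-written lists with 45 genes in all, of which 45 were tested. The lists were chosen with earlier results of these data known, so their counts are no independent result. At an adjusted p under 0.05, 4 were lower and 4 higher, or 8 of 45, against 4.51% and 2.88% of all genes tested, and their median log2 fold change was 0.091. The count was 7 without WT replicate 1 (5.59% of all genes), 5 without WT replicate 2 (4.57%) and 20 without WT replicate 3 (21.5%), the last with 8 lower and 12 higher. It was 4, 5 and 4 without CKO replicates 1, 2 and 3 in turn (3.38%, 3.73% and 3.41%), and 14 with DESeq2 (9.01%), of which 5 were lower and 9 higher. Among the other ligands, 1 of 4 fell, all 4 had negative log2 fold changes and their median was -0.39. Vegfb, Vegfd, Pgf and Angpt4 had log2 fold changes of -0.38, -0.36, -1.02 and -0.40, and for each of the 4 every CKO library lay below every WT library, as for 15.7% of all genes. Vegfd lies on chromosome X, and the part of donor sex in its difference was not tested. Per kilobase of exon, Angpt4 was at 17.2 ± 1.75 CPM in WT and 13.04 ± 0.842 CPM in CKO (SD, n = 3), close to Angpt1 at 17.3 ± 2.71 and 12.5 ± 0.393. Pgf, which encodes placental growth factor, a ligand of VEGFR1, was the 1 that passed with all 6 libraries in edgeR. It was at 6.86, 6.25 and 4.52 CPM in the WT libraries (replicates 1 to 3 in turn) and at 3.29, 2.79 and 2.60 CPM in the CKO libraries. These groups did not overlap (log2 fold change -1.02, SE 0.21, adjusted p = 0.0234). Its call was lost without WT replicate 1 (-0.89) or 2 (-0.97) and without CKO replicate 1 (-1.12), 2 (-0.99) or 3 (-0.94). The adjusted p-values of Vegfb, Vegfd and Angpt4 were 0.0986, 0.149 and 0.0724. Angpt4 passed with DESeq2 (-0.40, adjusted p = 0.0446) and without WT replicate 3 (-0.46, adjusted p = 0.00131), and Vegfb without WT replicate 3 (-0.32, adjusted p = 0.0231).

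The receptors on which these ligands act in endothelium were scarce. Kdr (VEGFR2), Flt1 (VEGFR1), Tek (Tie2) and Tie1 lay between 0.306 and 3.61 CPM in all libraries, and Flt4 (VEGFR3) between 6.76 and 15.6 CPM. With edgeR and all 6 libraries, 0 of the 8 receptors and co-receptors passed in either direction, and their median log2 fold change was 0.20. At an unadjusted p under 0.05, 0 were lower and 2, Flt1 and Flt4, higher (11.8% and 9.56% of all genes), and DESeq2 called 1 of the 8, Flt4, as higher (adjusted p = 0.00943, 3.76% of all genes), limma-voom 0. Without WT replicate 3, Flt1 (1.67, adjusted p = 0.0173), Flt4 (0.81, adjusted p = 0.00129) and Lrp1 (0.18, adjusted p = 0.0397) passed as higher, and Flt4 also passed with no filter on low counts (0.69, adjusted p = 0.034). Flt4 was at 9.96, 6.76 and 10.3 CPM in the WT libraries (replicates 1 to 3 in turn) and at 15.6, 13.6 and 14.4 CPM in the CKO libraries, a log2 fold change of 0.69 (SE 0.18, adjusted p = 0.0544). The co-receptors Nrp1 and Nrp2 and the endocytic receptor Lrp1, which associates with PDGFRβ, were abundant, at 337 to 429, 518 to 594 and 3506 to 4094 CPM, with log2 fold changes of 0.13, 0.031 and 0.17.

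Of 9 genes that process or bind the ligands, 3 rose and 1 fell, with a median log2 fold change of 0.14, where 2.88% of all genes were called higher and 4.51% lower. DESeq2 called 4 higher and 1 lower (3.76% and 5.26% of all genes), and limma-voom 3 and 1 (2.85% and 4.20%). At an unadjusted p under 0.05 with edgeR, 4 were higher and 1 lower (9.56% and 11.8%). Plat and Plau encode the plasminogen activators tPA and uPA, proteases known to activate PDGF-C and PDGF-D respectively. Plat was at 16.1, 16.9 and 16.7 CPM in the WT libraries (replicates 1 to 3 in turn) and at 27.5, 26.7 and 30.02 CPM in the CKO libraries, a log2 fold change of 0.76 (SE 0.11, adjusted p = 0.00359). Plau was at 54.1, 42.0 and 37.1 CPM in the WT libraries (replicates 1 to 3 in turn) and at 85.2, 99.8 and 82.3 CPM in the CKO libraries, a log2 fold change of 1.00 (SE 0.15, adjusted p = 0.00547). For both proteases the groups lay apart, whereas Pdgfc and Pdgfd did not pass. Pcsk5, a proprotein convertase that can cleave the VEGF-C precursor, fell by 1.47 on the log2 scale (SE 0.17, adjusted p = 0.00161), from 14.8 to 17.1 CPM across the WT libraries to 4.73 to 7.16 CPM across the others. Ccbe1, which encodes a cofactor of VEGF-C cleavage and is named here after its values were seen, had a log2 fold change of 0.51 (adjusted p = 0.0399). With one library left out, it was not past the threshold without WT replicate 1 (0.45) or 2 (0.49) or without CKO replicate 1 (0.54), 2 (0.51) or 3 (0.50).

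Downstream of the receptors, 1 of 18 genes fell and 1 rose, where 4.51% of all genes were called lower and 2.88% higher. Their median log2 fold change was 0.094. DESeq2 called 1 lower and 4 higher (5.26% and 3.76% of all genes), and limma-voom 1 and 1 (4.20% and 2.85%). At an unadjusted p under 0.05 with edgeR 2 were lower and 5 higher, against 11.8% and 9.56% of all genes. Pik3r1, which encodes the regulatory PI3-kinase subunit that docks on activated PDGF receptors, was at 329, 343 and 422 CPM in the WT libraries (replicates 1 to 3 in turn) and at 231, 256 and 223 CPM in the CKO libraries. It fell by 0.63 on the log2 scale (SE 0.12, adjusted p = 0.0149), a call lost without CKO replicate 1 (-0.60) or 3 (-0.58). Dusp6, an ERK phosphatase induced by receptor signalling, rose by 0.45 (SE 0.10, adjusted p = 0.038), a call lost, among the fits with one library left out, without WT replicate 2 (0.42) and without CKO replicate 1 (0.48), 2 (0.36) or 3 (0.51). Among 6 oxygen-sensing genes, 1 fell and 0 rose, beside 4.51% and 2.88% of all genes, and their median was -0.0094. Epas1, which encodes HIF-2α, was at 344, 318 and 444 CPM in the WT libraries (replicates 1 to 3 in turn) and at 98.7, 95.3 and 99.2 CPM in the CKO libraries. Every WT library was far above every CKO library, and Epas1 fell by 1.91 on the log2 scale (SE 0.13, adjusted p = 0.000154). Epas1, Pcsk5, Plat and Plau passed the threshold under all 13 alternatives. Hif1a, for HIF-1α, had a log2 fold change of 0.021 (95% interval -0.31 to 0.36, adjusted p = 0.952). The hypoxia response element core in its form ACGTG was searched on either strand. It occurred in the 300 bases around 1 of the 8 starts, the downstream start of Vegfa. Of all 32851 such windows, 19.6% held it. Other forms of the core, and bases more than 250 before or 50 after a start, were not searched.

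**Figure D5:**
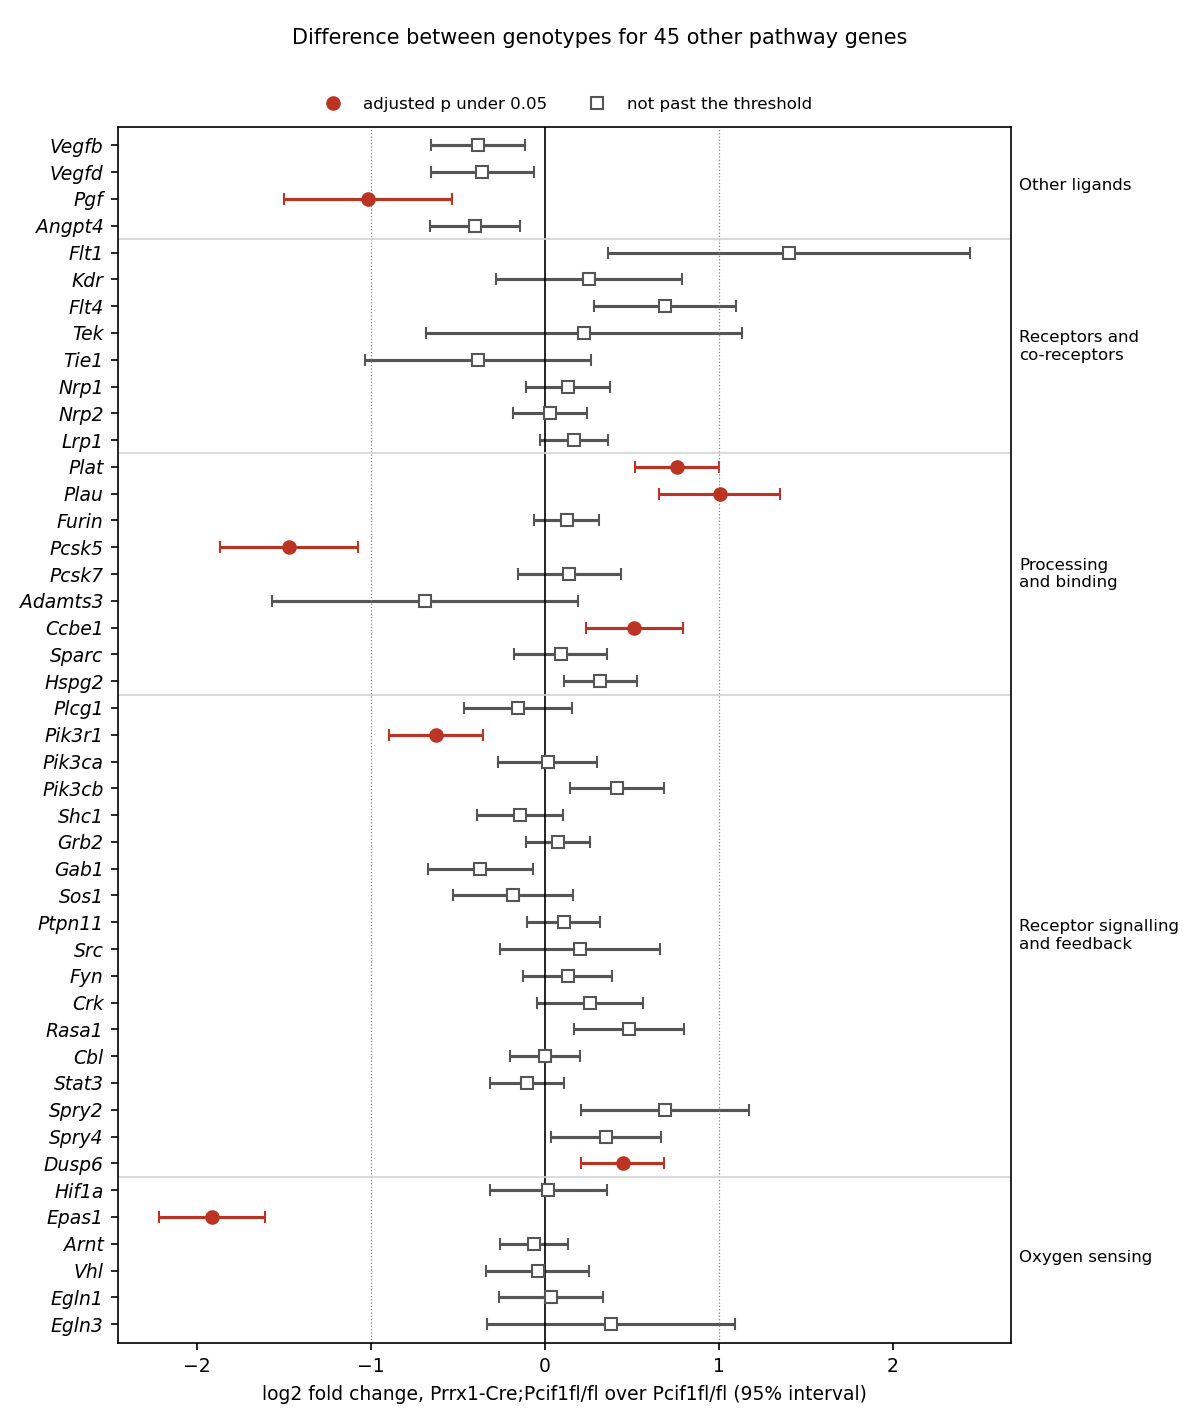
Log2 fold change (CKO over WT) with 95% interval for the 45 genes of the 5 pathway lists, filled red circles for an adjusted p under 0.05 and dotted lines at a 2-fold change. Epas1 (-1.91), Pcsk5 (-1.47), Pgf (-1.02) and Pik3r1 (-0.63) lie lower, and Plau (1.00), Plat (0.76), Ccbe1 (0.51) and Dusp6 (0.45) higher.

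Some markers of the adipocyte and mural lineages were also lower in CKO, beside 4.51% of all genes called lower and 2.88% higher. These shares were 5.26% and 3.76% with DESeq2 and 4.20% and 2.85% with limma-voom. At an unadjusted p under 0.05 with edgeR they were 11.8% and 9.56%. Of 6 adipocyte-lineage markers, 4 fell, and Adipoq went from 42.9 to 53.8 CPM in WT to 0.289 to 1.49 CPM in CKO libraries. Plin1 had 0 counts in all 3 CKO libraries and 59 to 115 counts in the controls. Fabp4 lay the other way, at 66.3 to 78.8 CPM in WT and 85.3 to 107 CPM in CKO libraries, with a log2 fold change of 0.46 (adjusted p = 0.0545), and DESeq2 called 1 adipocyte marker higher. The summed level of the 6 markers, to which Cebpa and Fabp4 contribute most, was 342 to 485 and 333 to 364 CPM. Of 8 mural markers, 7 were tested and 3 fell, Rgs5, Mcam and Abcc9, with log2 fold changes of -1.99, -1.05 and -3.29, while the summed level, mostly Acta2, was 543 to 700 and 576 to 599 CPM. Cspg4 had a log2 fold change of 0.64 (adjusted p = 0.0541), with 3.30 to 3.79 CPM in WT and 4.96 to 5.99 CPM in CKO libraries, and DESeq2 called 1 mural marker higher. Of 12 mesenchymal markers, 4 fell, Eng, Vcam1, Alpl and Sp7, and 4 rose, Col1a1, Col1a2, Thy1 and Cd44, with summed levels, mostly Col1a1, Col1a2 and Col3a1, of 9455 to 12366 and 15091 to 16239 CPM. The 9 endothelial markers summed to 30.1 to 43.0 and 28.9 to 32.8 CPM, and Sox17 and Cldn5 among them were under 0.8 CPM in every library. Of the 8 tested, 0 passed with edgeR, 1 was lower and 1 higher at an unadjusted p under 0.05, and DESeq2 called 1 lower and limma-voom 0. Macrophage and leukocyte markers summed to 27704 to 29793 and 27176 to 30574 CPM, with 1 of 8, Fcgr1, past the threshold and higher, and 2 higher with DESeq2. At an unadjusted p under 0.05 with edgeR, 2 were higher and 1, Csf1r, lower. Csf1r was at 1090 to 1244 CPM in WT and 940 to 1002 CPM in CKO libraries (log2 fold change -0.26, adjusted p = 0.141). The 5 megakaryocyte markers summed to 4.23 to 7.38 and 7.65 to 9.95 CPM, and Ppbp and Gp9 had at most 4 counts in any library. Of the 3 tested, 0 passed with edgeR, DESeq2 or limma-voom, and 1 was higher at an unadjusted p under 0.05 with edgeR. The part of these cell types in the levels of Angpt2, Vegfc, Pdgfra or any other of the 10 genes was not tested.

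Genes with the most similar profile across the 6 libraries were listed for the 3 genes that fell, as a description. For Angpt2 they were Sp7, the osterix gene (Pearson r = 0.999 of log2 CPM), and the phosphodiesterase gene Pde5a (r = 0.999). For Pdgfra they were Igf2bp1 (r = 0.998) and Negr1 (r = 0.997), and for Vegfc they were Slc19a1 and Extl2 (r = 0.995 for both). With 2 groups of 3 libraries such values are common. Of 12191 genes compared, 788 had an r above 0.9 with Angpt2, 785 with Pdgfra and 384 with Vegfc.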

How the data were processed

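The authors mapped clean paired-end reads to mm10 with HISAT2 and deposited raw counts per gene. What counted the reads, on which annotation and with which strand setting is not given in the sources used here. The submitters' processing notes also name FastQC and DESeq2. Of 20163 rows, 92 repeated an Ensembl ID with identical counts and were dropped.

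The genotypes were compared over all genes by the quasi-likelihood test of edgeR 4.0.16 under R 4.3.3, after filterByExpr and TMM and with no covariate, and a gene was called at a Benjamini-Hochberg adjusted p under 0.05. Standard errors are the log2 fold change over the square root of F. Exon lengths and overlaps came from GENCODE M21 on GRCm38 and start sequences from RefSeq. Similar profiles used log2(CPM + 1) and genes with a mean of at least 1 CPM outside chromosomes X and Y. Alternatives were RLE and total-count scaling, DESeq2 1.42.0, limma-voom (limma 3.58.1), other filters, the replicate number as a block, and each library left out.

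The genes and lists were chosen with earlier results of these data known. Named beyond the 10 genes are up to 3 genes per list with the smallest p among those past the threshold, the vascular receptors, and, after their values were seen, Ccbe1, Vegfb, Vegfd, Angpt4, Nrp1, Nrp2, Lrp1, Hif1a and the markers. On simulated counts with log2 changes of 2, edgeR recovered 192 of 197 changed genes among 13594 with 9 false calls, limma-voom 193 of 197 with 11, and DESeq2 192 of 200 among 13733 with 33. Each of the 10 genes changed by less than this. The recovery therefore does not show how often changes of their size would be called. An exact permutation test of 3 libraries against 3 cannot go below p = 0.1 and was not used. Depth per library sets the counting error, and no molecular identifiers are described for the libraries.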

Additional observations from a re-analysis of the deposited data

How the results depend on the processing

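Which of the 10 genes passed the threshold depended on single libraries. Their number was 3 with all 6 libraries and 1 to 7 with any one library left out, and that of the 45 pathway genes was 8 and 4 to 20. DESeq2 called 14 of the 45. The same replicate numbers do not pair the libraries, whose deviations from the genotype means correlated at 0.07, -0.055 and 0.0027 for replicates 1 to 3. With the replicate number as a block, 1 of the 10 genes and 6 of the 45 passed (5.61% of all genes), without Pdgfra (adjusted p = 0.0798), Vegfc (0.0754), Ccbe1 (0.0754) and Dusp6 (0.077). Angpt2 kept its call under all 13 alternatives, and none of the 10 genes changed direction under any of them. Signs turned, with one library left out, for Tek (-0.031 to 0.52), Nrp2 (-0.0015 to 0.10) and Hif1a (-0.10 to 0.21), which passed in no such fit. The causes were not tested. Flt1 and Tek had 7 to 63 and 10 to 28 counts per library.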
